A study of Mus musculus with 6 samples.

Results

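The genes described here take up, store and export iron, and were 9 in number: Tfrc, Tfr2, Trf, Fth1, Slc40a1, Slc11a2, Cp, Hfe and Hpx. They were matched by gene symbol in the annotation of the array, and 8 of them had at least 1 probe set assigned to that gene alone, out of 12393 such genes on the array. Trf, the gene of the plasma iron carrier transferrin, was named by 1 probe set that is also assigned to another gene, so no value is given for it. Each of the other genes is represented by its lead probe set, the one with the highest mean over the 6 arrays, and the other probe sets are given beside it. The arrays profiled total liver RNA of 3 Ppara KO mice whose livers were injected with an adenoviral vector for TFEB and of 3 Ppara KO mice left without injection. The 6 mice had an age of 1 month and a C57 background. All are labelled as Ppara knockouts, so both groups are taken to lack this receptor, which activates fatty acid oxidation genes. TFEB is known as an activator of lysosomal genes and of autophagy. Each array is 1 mouse, numbered by its replicate number. No mice injected with an empty vector were among the samples, so an effect of the injection or the virus and an effect of TFEB cannot be told apart.

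Iron reaches hepatocytes bound to transferrin, which is taken up by transferrin receptor 1, or as free iron through metal transporters, and the surplus is stored in ferritin inside the cell. It leaves the cell only through ferroportin, which the liver hormone hepcidin removes from the cell surface. Iron regulatory proteins bind hairpins in the mRNAs of several of these genes. When iron is scarce they stabilise the mRNA of the transferrin receptor and block the translation of ferritin and ferroportin. The mRNA levels of ferritin and ferroportin thus need not follow the protein levels. No protein was measured here for any of the genes. Liver macrophages, the Kupffer cells, recycle iron from aged red cells and also carry much ferroportin.

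The RefSeq promoter windows (GRCm38.p6, 250 bases before to 50 bases after an annotated start) covered 6 of the 9 genes with 11 windows. Slc40a1, Slc11a2 and Trf had no window and were not searched. CACGTG, the core of the element that TFEB binds, was in 0 of these 11 windows, against 7.15% of all 32851 windows in the table. The full palindromic CLEAR element, which contains CACGTG and is 10 letters long, was also in 0 of 11, against 0.326% of all windows. Both were searched on both strands. The 250 bases before the start are shown for 3 genes whose mRNA was higher in the injected livers, to let the letters searched be read directly. Capitals mark the CCAAT box, the GC box GGGCGG and the TATA box TATAAA on either strand, which were added to the search after the windows had been seen. Of all windows, 37.4% hold CCAAT, 35.7% hold GGGCGG and 13.6% hold TATAAA.
Tfrc, chr16:32608646-32608895, plus strand, the upstream of its 2 annotated starts: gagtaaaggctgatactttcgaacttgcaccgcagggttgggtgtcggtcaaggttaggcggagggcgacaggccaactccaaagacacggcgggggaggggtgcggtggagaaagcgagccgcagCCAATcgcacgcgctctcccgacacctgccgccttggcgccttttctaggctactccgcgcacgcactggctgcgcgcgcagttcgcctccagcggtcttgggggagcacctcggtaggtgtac
Fth1, chr19:9982396-9982645, plus strand, the downstream of its annotated starts: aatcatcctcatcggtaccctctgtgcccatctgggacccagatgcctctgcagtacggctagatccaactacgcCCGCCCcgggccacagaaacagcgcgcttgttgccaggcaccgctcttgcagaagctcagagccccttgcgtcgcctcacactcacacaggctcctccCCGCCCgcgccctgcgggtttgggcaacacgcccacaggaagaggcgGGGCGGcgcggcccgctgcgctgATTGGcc
Hpx, chr7:105600117-105600366, minus strand: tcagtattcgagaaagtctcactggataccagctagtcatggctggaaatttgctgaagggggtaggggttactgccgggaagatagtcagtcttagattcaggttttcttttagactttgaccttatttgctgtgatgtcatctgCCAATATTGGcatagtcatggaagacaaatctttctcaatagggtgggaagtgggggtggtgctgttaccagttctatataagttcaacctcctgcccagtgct
The Tfrc window shown held 1 CCAAT, which began 124 bases before the start; the window of the downstream Tfrc start held 2 GGGCGG and 0 CCAAT. The Fth1 window shown held 3 GGGCGG before the start and 1 CCAAT that began 7 bases before it. The Hpx window held CCAAT on each strand, beginning 104 and 99 bases before the start and adjoining without overlap. These matches describe letters in the windows, and the data hold no measurement of binding there.

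Tfrc, Slc40a1, Hpx and Fth1 rose in the TFEB-injected livers, and by lead probe set 0 of the 8 measured iron genes fell. Of the 7 Cp probe sets, however, 4 were called lower when all 20380 probe sets were tested, where 7.03% were called lower. The lead probe set calls use limma on the deposited log2 values over all 12393 genes, with a Benjamini-Hochberg adjusted p under 0.05. Of all genes, 9.99% were called higher and 7.92% lower. The median log2 change of the 8 iron genes was 0.11, and that of all genes was -0.01. The iron genes and the lists below were chosen with earlier results of these data known. Their shares beside those of all genes are therefore only descriptions. The groups did not overlap for 4 iron genes that were higher in injected livers and for 2 that were lower, Tfr2 and Cp; over all genes, 18.2% were separated upward and 18.9% downward. The calls over all genes were 1238 higher and 981 lower, or 55.8% higher; with each array centred on its median they were 1060 and 1352, or 43.9% higher, while the 4 iron calls stood. Leaving out any not-injected mouse (1, 2 or 3), or TFEB-injected mouse 2, reduced the 4 to 2, with Fth1 and Hpx no longer called. For a single gene the exact permutation test of 3 arrays against 3 cannot go below 0.1 (two-sided), the value reached by each of the 6 separated genes.

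**Figure D1:**
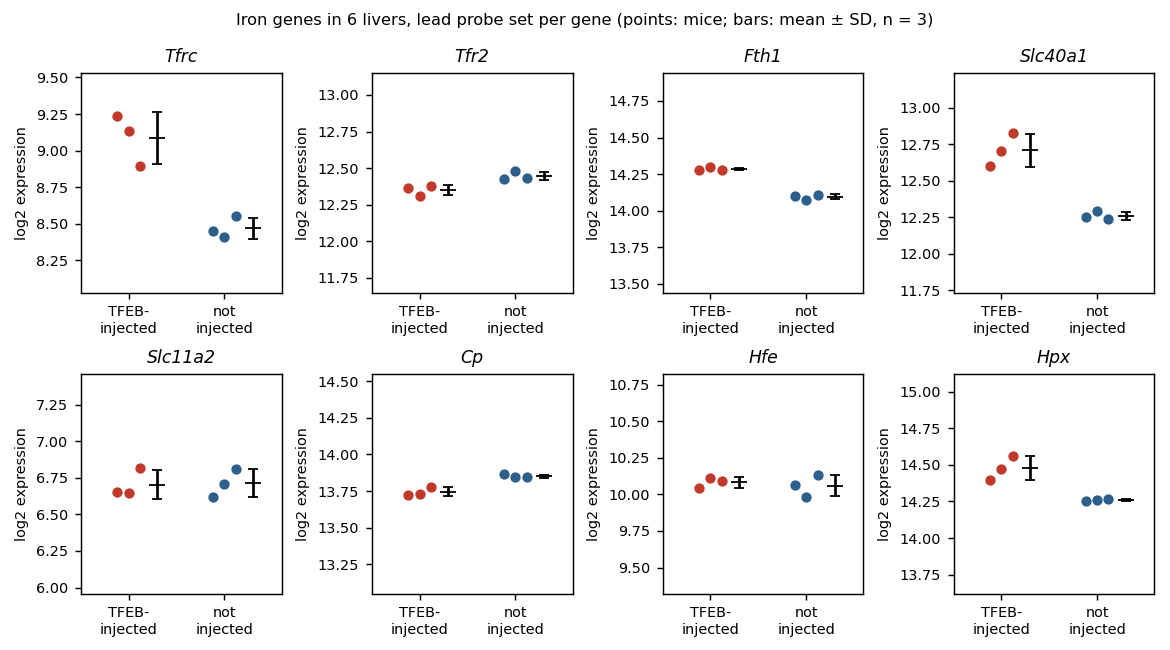
Log2 expression (y axis) of the lead probe set of each measured iron gene in the livers of 3 TFEB-injected mice (left, red points) and 3 mice that were not injected (right, blue points), with mean ± SD in black; every panel spans the same number of log2 units. All injected mice lie above all others for Tfrc, Fth1, Slc40a1 and Hpx, and below them for Tfr2 and Cp.

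Among the uptake genes, Tfrc, which encodes transferrin receptor 1, gave log2 levels of 9.24, 9.13 and 8.89 in TFEB-injected livers, against 8.45, 8.41 and 8.55 in livers that were not injected. Every injected mouse lay above every other mouse, and the lowest injected value was 0.34 above the highest of the other group. Tfrc averaged 9.09 ± 0.18 in injected and 8.47 ± 0.07 in not-injected livers (SD, n = 3 each), a log2 change of 0.62 ± 0.09 (SE), or 1.54-fold (limma, adjusted p = 0.00384). Its 95% interval ran from 0.41 to 0.83, and no other lead probe set of the 8 genes changed by more. In bulk liver RNA, more cells of a type that expresses a gene and more RNA per cell cannot be told apart. The other 2 tested Tfrc probe sets did not pass. One gave 5.77, 5.74 and 6.20 in injected livers against 5.73, 5.82 and 5.61 in not-injected livers (log2 change 0.18 ± 0.12), and the other 4.56, 4.50 and 4.53 against 4.44, 4.59 and 4.59 (-0.01 ± 0.06). In both, the groups overlapped. The 3 control probe sets for this gene on the chip differed by 0.00 to 0.08 between injected and not-injected livers. Their group means were 3.89 to 4.79, far below the lead probe set and not far above the lowest value on the arrays, 3.08. For 1 of them every injected mouse was higher. With the mean of all its tested probe sets the Tfrc change was 0.26 ± 0.04 (adjusted p = 0.00649), under the lead value by more than 1.5 times and below the Slc40a1 change of 0.50 computed in the same way.

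Tfr2 encodes the second transferrin receptor, which in hepatocytes senses iron-loaded transferrin and feeds into hepcidin production. It gave 12.36, 12.31 and 12.38 in TFEB-injected livers, against 12.43, 12.48 and 12.43 in not-injected livers. All injected values were the lower ones, but by a gap of 0.05, and the change of -0.09 ± 0.04 did not pass (adjusted p = 0.202; 95% interval -0.20 to 0.01). The lead probe set is of a type that can detect related sequences, and the other Tfr2 probe set gave -0.08 ± 0.05 with overlapping groups. With array weights the lead probe set passed as lower (-0.13, adjusted p = 0.00968). Hfe encodes an MHC-like protein that binds transferrin receptors and is also needed for normal hepcidin levels. Its levels were 10.04, 10.11 and 10.09 in injected livers against 10.07, 9.98 and 10.13 in not-injected livers, which overlapped (log2 change 0.02 ± 0.05; adjusted p = 0.822; 95% interval -0.10 to 0.15). A second Hfe probe set gave 7.53, 7.42 and 7.27 against 7.60, 7.57 and 7.69, with all injected mice lower, and did not pass either (-0.21 ± 0.08; adjusted p over 20380 probe sets 0.110).

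Slc11a2 encodes DMT1, which moves iron across the endosomal membrane after transferrin has released it. The lead probe set gave 6.65, 6.64 and 6.82 in TFEB-injected livers and 6.62, 6.71 and 6.81 in not-injected livers. The groups overlapped, and the change was -0.01 ± 0.07 (adjusted p = 0.949; 95% interval -0.18 to 0.16). The other 2 probe sets gave changes of 0.15 ± 0.08 and 0.30 ± 0.09. The last of these was separated between the groups, at 6.47, 6.74 and 6.49 in injected livers against 6.15, 6.23 and 6.41 in not-injected livers, and missed the threshold over all probe sets (adjusted p = 0.0712). The 3 probe sets thus did not give 1 answer for this gene.

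Fth1 encodes the ferritin heavy chain, the subunit that oxidises iron as it enters the ferritin shell. It gave 14.28, 14.30 and 14.28 in TFEB-injected livers, against 14.10, 14.08 and 14.11 in not-injected livers. The values were tight within each group, with a gap of 0.17 between the groups. Its change was small, 0.19 ± 0.04 on the log2 scale, or 1.14-fold (limma, adjusted p = 0.0194; 95% interval 0.09 to 0.29). The other Fth1 probe set rose by 0.26 ± 0.04 (adjusted p over all probe sets 0.00733), with 14.30 in each injected liver against 14.03, 14.05 and 14.05 in the other livers. It is of the type that can detect related sequences, and Fth1 has processed pseudogenes. The lead probe set no longer passed with not-injected mouse 1, 2 or 3 left out (adjusted p = 0.0717, 0.0719 and 0.0542) or with TFEB-injected mouse 2 left out (0.0860), while its change stayed between 0.18 and 0.20 with any 1 array left out.

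Slc40a1 encodes ferroportin, the iron exporter. Its levels were 12.60, 12.70 and 12.82 in TFEB-injected livers, against 12.25, 12.29 and 12.24 in not-injected livers. The groups were 0.31 apart at their nearest values. The change was 0.45 ± 0.06, or 1.37-fold (limma, adjusted p = 0.00330; 95% interval 0.30 to 0.60), the smallest p among the iron genes. A second probe set gave 10.15, 10.31 and 10.45 against 9.82, 9.75 and 9.69, and also rose (0.55 ± 0.08). The call stood with any 1 array left out, with changes of 0.39 to 0.50. Across the 6 arrays the genes whose log2 levels followed Slc40a1 most closely were Oxct1, for a ketone-using mitochondrial enzyme, Mogat2, for an acyltransferase of triglyceride synthesis, and Serpinb8, for a protease inhibitor, with Pearson r of 0.9999, 0.9996 and 0.9990. In all 126 genes had an r above 0.99, and all 6 points share the difference between the groups, so the ranking is a description.

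Cp encodes ceruloplasmin, the copper-containing plasma ferroxidase that oxidises iron leaving cells through ferroportin. The lead probe set gave 13.73, 13.73 and 13.78 in TFEB-injected livers, against 13.86, 13.85 and 13.85 in not-injected livers. All injected values were lower, by a gap of 0.07, and the change of -0.11 ± 0.04 did not pass (adjusted p = 0.137). Of the 7 Cp probe sets, however, 4 fell when all 20380 probe sets were tested, where 7.03% of all probe sets were called lower. Their changes were -0.20 ± 0.05, -0.22 ± 0.05, -0.22 ± 0.05 and -0.41 ± 0.05 (adjusted p = 0.0267, 0.0184, 0.0285 and 0.00170). The last of them gave 10.93, 10.90 and 10.84 in injected livers against 11.33, 11.28 and 11.29 in not-injected livers. The remaining 2 probe sets lay near a log2 level of 6 or below in both groups, overlapped, and changed by 0.08 ± 0.13 and 0.01 ± 0.13. The lead probe set itself passed as lower when dim genes, below the median of all genes, were dropped (adjusted p = 0.0465), with an intensity trend and a robust prior (0.00985), with array weights (0.00763) and with an unmoderated test (0.0430). Whether Cp is called lower therefore depends on the probe set and the setting. In 5 of its 7 probe sets, the lead included, all injected values were lower. Over all genes, 18.9% of lead probe sets were separated downward.

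Hpx encodes hemopexin, a plasma protein made by hepatocytes that binds free heme and carries it back to the liver, and is an acute phase protein in rodents. It has 1 probe set, which gave 14.40, 14.47 and 14.56 in TFEB-injected livers, against 14.26, 14.26 and 14.27 in not-injected livers. The not-injected mice were nearly identical, and the injected mice were all higher and more spread (SD 0.08 in injected and 0.01 in not-injected livers, n = 3 each). The change was 0.22 ± 0.05, or 1.16-fold (limma, adjusted p = 0.0305; 95% interval 0.09 to 0.34). Hpx no longer passed with not-injected mouse 1, 2 or 3 left out (adjusted p = 0.1002, 0.0909 and 0.0800), with TFEB-injected mouse 2 left out (0.0988) and with an unmoderated test (0.0683).

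**Figure D2:**
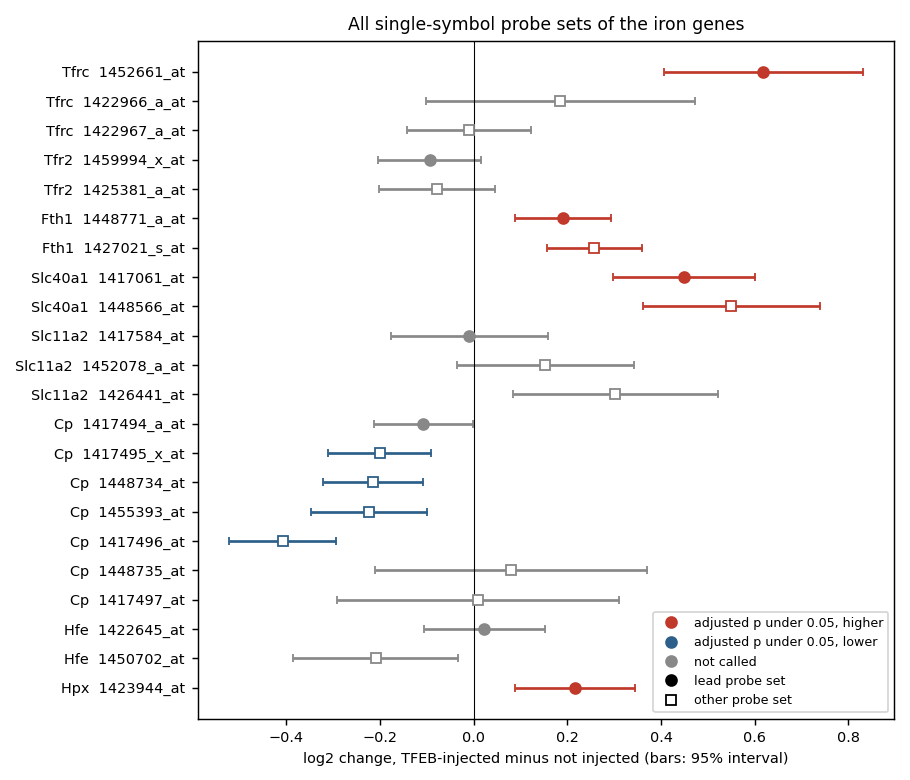
Log2 change (x axis, TFEB-injected minus not injected, with 95% intervals) of the 22 tested probe sets of the 8 measured iron genes, from the test over all probe sets; filled circles are lead probe sets and open squares the others, coloured by call. Both probe sets of Fth1 and of Slc40a1 lie above 0, 4 of 7 Cp probe sets are called lower, and the Tfrc, Slc11a2 and Hfe probe sets differ among themselves.

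Over all 22 tested probe sets of the iron genes, 6 were called higher and 4 lower, against 8.34% and 7.03% of all 20380 probe sets. The 6 belonged to Tfrc (1), Fth1 (2), Slc40a1 (2) and Hpx (1), and the 4 were all of Cp. Among the injected mice the genes that rose did not move in step. TFEB-injected mouse 1 had the highest Tfrc level of the 3 and the lowest levels of Slc40a1 and Hpx, whereas TFEB-injected mouse 3 had the lowest Tfrc level and the highest Slc40a1 and Hpx levels. Fth1 had an SD of 0.01 among them.

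The other genes of iron biology were taken from 5 lists that together held 70 genes, of which 59 were measured; 8 of these rose and 9 fell, or 13.6% and 15.3%, against 9.99% and 7.92% of all genes, with a median log2 change of 0.01. With not-injected mouse 3 left out, 10 genes were called in place of 17. The list of the hepcidin axis holds the hormone's genes, BMP ligands, BMP and activin receptors, and transducers, regulators and targets of BMP signalling. Of its 15 measured genes, 1 rose and 4 fell, or 6.67% and 26.7%, with a median of -0.03. Hamp, the gene of hepcidin, gave 13.38, 13.41 and 13.58 in TFEB-injected livers, against 13.82, 13.85 and 13.77 in not-injected livers. All injected values were lower, and Hamp fell by 0.36 ± 0.06 on the log2 scale (limma, adjusted p = 0.00782). Its second probe set, of the type that can detect related sequences, fell by 0.34 ± 0.06. The Hamp call stood with any 1 array left out. Hamp2, the other hepcidin gene of the list, was not called (0.03 ± 0.12, limma, adjusted p = 0.905), and its lead probe set is also of that type. Acvr2a, for an activin receptor, fell by 0.27 ± 0.06, and Id1, a target of BMP signalling, rose by 0.46 ± 0.10. Bmp6, for the ligand that raises hepcidin when iron is high, gave 6.30 ± 0.12 in injected and 6.24 ± 0.05 in not-injected livers and did not pass (adjusted p = 0.612). Hjv and Tmprss6, which encode further regulators of hepcidin, were not among the genes with a probe set of their own. Leaving out not-injected mouse 1, 2 or 3 gave 1, 2 and 1 lower genes in place of 4. Id1 no longer passed with not-injected mouse 1, not-injected mouse 3 or TFEB-injected mouse 2 left out, nor Acvr2a with not-injected mouse 1 or 3 left out (adjusted p up to 0.0726 and 0.0651).

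Genes that handle iron inside the cell went both ways, with 3 of 14 measured genes higher and 3 lower (median -0.07). This was 21.4% in each direction, against 9.99% higher and 7.92% lower of all genes. Ncoa4, the receptor that delivers ferritin to lysosomes, gave 11.85, 11.88 and 11.99 in TFEB-injected livers, against 11.55, 11.54 and 11.51 in not-injected livers. It rose by 0.37 ± 0.05 (limma, adjusted p = 0.00288), and its second probe set by 0.27 ± 0.05. Mcoln1, for a lysosomal cation channel that conducts iron among other ions, rose by 0.62 ± 0.08. Steap4 and Steap3 encode metalloreductases. Steap4 gave 10.30, 10.23 and 10.04 in injected livers against 11.03, 11.06 and 11.05 in not-injected livers, and fell by 0.86 ± 0.07 (adjusted p = 3.49e-04). Steap3, the reductase that acts with transferrin receptor 1 in erythroid endosomes, fell by 0.34 ± 0.06, while its other 2 probe sets, near a log2 level of 4, gave -0.03 and -0.15 and did not pass; with the mean of its probe sets the change was -0.17 and missed the threshold (adjusted p = 0.0501). Ftl1, for the ferritin light chain, had no probe set of its own.

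Of 10 genes for heme and hemoglobin scavenging, 1 rose and 2 fell (median 0.09), or 10% and 20%, against 9.99% and 7.92% of all genes. Hmox1, for the enzyme that frees iron from heme, gave 7.73, 7.62 and 7.51 in TFEB-injected livers, against 6.84, 6.86 and 6.72 in not-injected livers, and rose by 0.81 ± 0.07 (limma, adjusted p = 4.09e-04). Blvrb, for a biliverdin reductase, fell by 0.26 ± 0.05, and Lrp1, for the receptor of the hemopexin-heme complex, fell by 0.24 ± 0.05. Lrp1 no longer passed with not-injected mouse 2, not-injected mouse 3 or TFEB-injected mouse 2 left out (adjusted p up to 0.0523), which leaves 1 gene lower, and 2 genes were higher with TFEB-injected mouse 1 left out. Hp, for the hemoglobin-binding plasma protein haptoglobin, gave 13.92, 14.09 and 14.26 in injected livers and 14.09, 14.11 and 14.10 in not-injected livers, with injected mice on both sides of the others (-0.01 ± 0.08; adjusted p = 0.953). Of 10 genes for mitochondrial iron and iron-sulfur clusters, 2 rose and 0 fell (median 0.04); without TFEB-injected mouse 3, 1 was lower. Those that rose were Isca1, for an iron-sulfur assembly protein (0.39 ± 0.05), and Slc25a37, for the iron importer mitoferrin 1 (0.33 ± 0.05). Of 10 genes for the endocytosis and recycling of the transferrin receptor, Vps35, a retromer subunit, was the 1 that rose (0.19 ± 0.05; adjusted p = 0.0371; list median 0.08), again 10% against 9.99% of all genes. It no longer passed with any 1 mouse left out other than TFEB-injected mouse 1 (adjusted p up to 0.118) and after centring (0.0542), and a second Vps35 probe set gave -0.21.

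**Figure D3:**
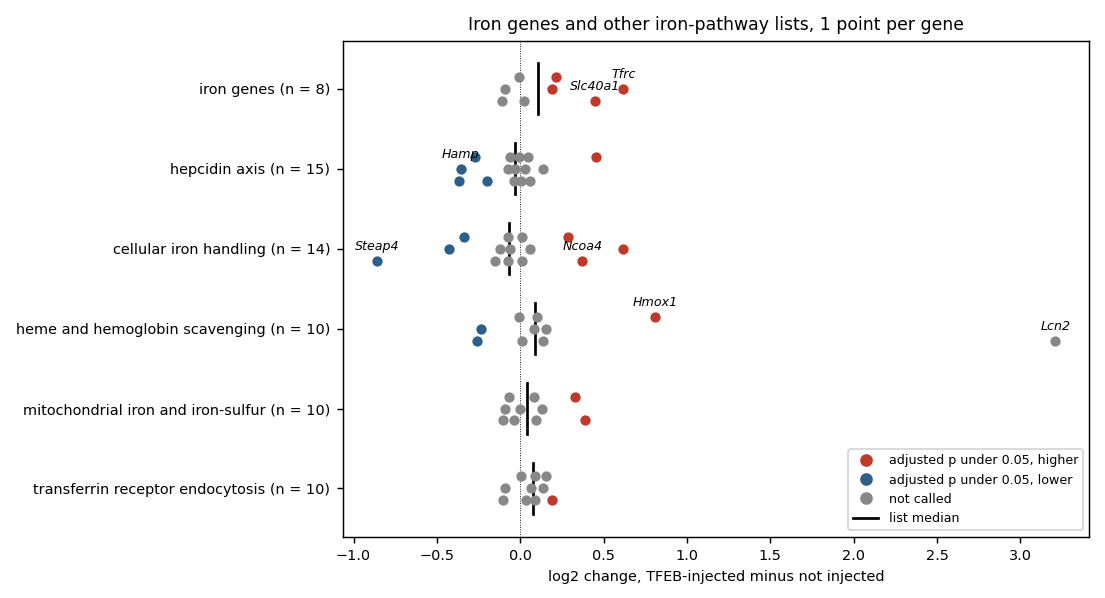
Log2 change (x axis, TFEB-injected minus not injected) of each measured gene of the iron genes and of 5 further lists, 1 point per gene, coloured by call, with the list median as a black bar. The medians lie between -0.07 and 0.11; Hamp and Steap4 are to the left of 0, Ncoa4, Hmox1, Tfrc and Slc40a1 to the right, and Lcn2, at 3.21, was not called.

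Markers of other cells were read beside these values. Of all genes, 9.99% were called higher and 7.92% lower. Of the hepatocyte, macrophage, erythroid and endothelial markers, 0%, 73.7%, 0% and 20% were called higher, and 10%, 0%, 12.5% and 0% lower. Of 10 measured hepatocyte markers, the defining genes of the labelled tissue, 0 rose and 1 fell, and their antilog levels summed to 209665 to 215398 in injected and 218335 to 218446 in not-injected livers. Of 19 measured macrophage and Kupffer cell markers, which include Hmox1 and Cd163 from the lists above, 14 rose and 0 fell, with a median of 0.44; the deposited values hold no presence calls. Their summed antilog level was 15431 to 17292 in injected livers and 11490 to 11774 in not-injected livers. The median shift of the markers was 0.57, 0.50 and 0.29 in TFEB-injected mice 1, 2 and 3, where Tfrc was 9.24, 9.13 and 8.89, in the same order, and Slc40a1 was 12.60, 12.70 and 12.82, in the opposite order. This order was not particular to the macrophage markers. The median shift was 0.19, 0.06 and -0.14 for the sinusoidal endothelial markers and 0.12, 0.07 and 0.04 for the receptor endocytosis list in the same mice. With 3 mice a shared order is only a description. The part of the macrophage markers in the Slc40a1 and Tfrc values was not tested. Of 8 measured erythroid markers 0 rose and 1 fell, with a median of -0.01 and a summed level of 1022 to 1115 in injected and 1536 to 1561 in not-injected livers; the 1 that fell was Alas2, for the heme synthesis enzyme of red cells, by 0.81. Without Alas2 the sum of the other 7 was 439.1 to 465.7 in injected and 452.6 to 479.7 in not-injected livers. Of 10 sinusoidal endothelial markers 2 rose and 0 fell (median 0.05, summed level 5481 to 6756 in injected and 5035 to 5363 in not-injected livers). Those that rose were Stab2, by 1.42 ± 0.05, and Lyve1, by 0.89 ± 0.07, while the other 8 were not called.

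Acute phase genes, the group to which Hpx, Cp and Hamp also belong in a wider sense, were more variable in the injected mice. Of 14 measured, 5 rose and 2 fell, or 35.7% and 14.3%, against 9.99% and 7.92% of all genes, with a median of 0.46. Leaving out TFEB-injected mouse 1, 2 or 3 changed the 5 to 9, 2 and 3. Leaving out not-injected mouse 1, 2 or 3 changed it to 2, 2 and 3. The 2 that fell became 1 with any mouse left out except TFEB-injected mouse 3. Their summed antilog level was 104947, 141181 and 164857 in TFEB-injected mice 1, 2 and 3, against 101484 to 102187 in not-injected livers. Their median shift was 0.10, 0.51 and 0.80 in the same 3 mice, in which Hpx was 14.40, 14.47 and 14.56 and Slc40a1 was 12.60, 12.70 and 12.82, both in that order, while Tfrc was in the opposite order. The acute phase order is the reverse of the macrophage order, and other lists had it too. The median shift was -0.01, 0.11 and 0.17 for heme scavenging, which shares Hp and Lcn2 with the acute phase genes. It was 0.02, 0.03 and 0.04 for the mitochondrial iron list. The part of the acute phase genes in the Hpx, Slc40a1 and Tfrc values was not tested.

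**Figure D4:**
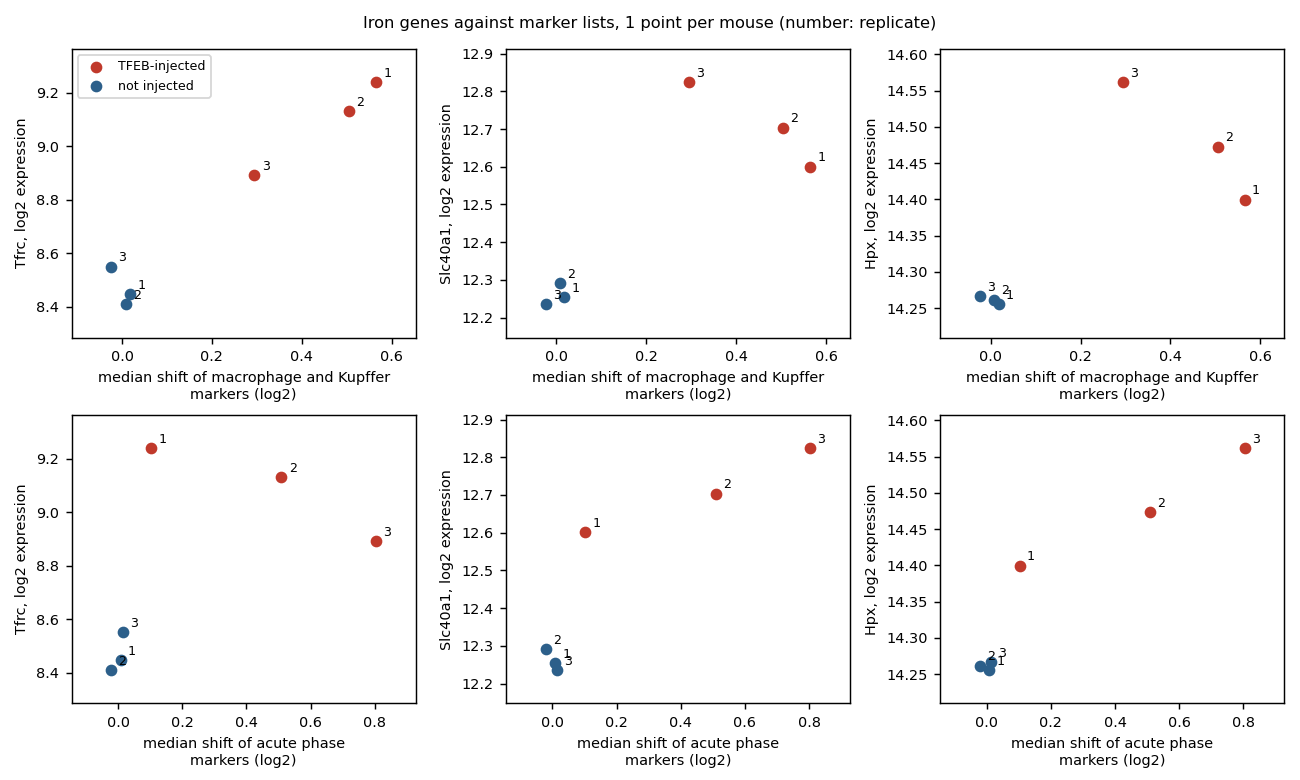
Log2 expression (y axis) of Tfrc, Slc40a1 and Hpx (columns) against the median shift of macrophage and Kupffer markers (top row) or acute phase markers (bottom row; x axes, log2, relative to the not-injected mean), 1 point per mouse (red, TFEB-injected; blue, not injected; numbers, replicates). Among the 3 injected mice Tfrc follows the order of the macrophage shift (0.57, 0.50 and 0.29 in mice 1, 2 and 3), and both Slc40a1 and Hpx follow the order of the acute phase shift (0.10, 0.51 and 0.80). The acute phase order is the reverse of the macrophage order, and other lists share each of them.

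The targeted genes did not check the labels. The Tfeb probe set gave 7.59 ± 0.12 in TFEB-injected and 7.55 ± 0.07 in not-injected livers (SD, n = 3 each), and the Ppara probe set gave 9.08 ± 0.04 in TFEB-injected and 8.95 ± 0.07 in not-injected livers; neither passed (limma, adjusted p = 0.777 and 0.149). The labels give neither the species of the TFEB carried by the vector nor its promoter, nor the part of Ppara that is missing. Correlations between arrays over all genes were 0.995 to 0.998 within the injected group, 0.998 to 0.999 within the not-injected group and 0.989 to 0.993 between groups. The number of arrays limits the precision, and each array is labelled as a biological replicate.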

How the data were processed

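Liver RNA of 6 mice was hybridised to 1 array each. The authors' tools, per the submitters' processing notes, were RMA and affy, with versions not given in the sources used here. What was deposited is log2 expression per probe set, 3.08 to 15.20, with no detection or saturation calls. RMA sets all arrays to 1 distribution, which hides overall shifts in RNA content, and it compresses changes of dim probe sets. Of 22690 probe sets, 20393 had 1 gene symbol; 20380 of these, without controls, represent 12393 genes. One lead probe set per gene was tested with limma 3.58.1 (lmFit, eBayes) in R 4.3.3, TFEB-injected minus not injected, with Benjamini-Hochberg adjustment over all genes. The test was checked on simulated data that gave both groups the same SD for each gene. In the real data the median ratio of the injected SD to the not-injected SD was 1.24, a difference this check does not cover. The iron genes and gene lists were chosen with earlier results of these data known. Named genes are all iron genes, the 2 called genes of smallest p in each direction per list (else the 1 of smallest p), 7 fixed pathway genes and the targeted genes. Lcn2, Alas2, Hamp2, Stab2 and Lyve1 were named after their values were seen. Replicate numbers did not pair the mice, with correlations of same-numbered arrays' deviations of -0.13 to 0.01. Alternatives tried were other probe set choices, normalizations, filters, variance models, thresholds, a replicate block and leaving out each array. Figures used matplotlib 3.10.9 in Python 3.11.15.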

Additional observations from a re-analysis of the deposited data

How the results depend on the processing

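Each result was recomputed under 18 alternatives, fewer where a probe set was filtered out. The calls of Tfrc, Slc40a1, Hamp, Ncoa4, Steap4, Mcoln1, Blvrb, Hmox1, Isca1 and Slc25a37 kept direction and significance in all of those run. The count of iron genes higher, 4, was 2 with the replicate block, 2 at a threshold of 0.01 and 2 to 4 with an array left out. The count lower, 0, was 1 with dim genes dropped (7 of 8 iron genes then tested), 1 with an intensity trend and robust prior, 2 with array weights and 1 with an unmoderated test. The calls in the other iron lists, 17, were 29 with array weights, 10 at a threshold of 0.01 and 10 to 18 with an array left out. Over all alternatives, genes called lower were 1 to 4 for the hepcidin axis and 1 to 2 for heme scavenging, those called higher were 0 to 2, 1 to 4 and 0 to 4 for the hepcidin axis, heme scavenging and receptor endocytosis, and with an unmoderated test the 14 higher macrophage markers were 8 and the 5 higher acute phase genes 1. The median change of the iron genes, 0.11, was 0.183 when probe sets were averaged per gene and 0.190 with dim genes dropped, which removes Slc11a2. All genes gave 1238 higher and 981 lower calls, 2717 and 3137 with array weights, 923 and 610 with the replicate block, and 645 and 408 at a threshold of 0.01. Steap3 was -0.17 and no longer called (adjusted p = 0.0501) with probe sets averaged. Under the replicate block Fth1 (adjusted p = 0.0762), Hpx (0.0708), Lrp1 (0.0557) and Vps35 (0.0966) lost their calls. The labels do not say whether same-numbered mice are paired. Signs turned as follows, none of them called. Slc11a2 was 0.149 with probe sets averaged, 0.0109 after cyclic loess and -0.0662 to 0.0405 with an array left out. Hfe was -0.0934 with probe sets averaged, -0.00846 after centring and -0.0160 to 0.0576 with an array left out. Hp was 0.0255 after cyclic loess and -0.0947 to 0.0762 with an array left out. Tfeb was -0.0878 with array weights and -0.0113 to 0.104 with an array left out. Vps35 was -0.00836 with probe sets averaged. The causes were not tested. Without detection calls, changes of dim probe sets such as those of Slc11a2 are the least certain.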
